A study of Homo sapiens with 6 samples.

Results

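The HOX genes of clusters A to D were examined in RNA sequencing of 4 human cell lines of atypical teratoid rhabdoid tumor (AT/RT). AT/RT is a childhood cancer of the central nervous system that is usually marked by loss of SMARCB1, a subunit of the SWI/SNF chromatin remodeling complex. The members were 38 HOX genes listed by symbol, of 36532 genes in the transcript files, with 10 members each in clusters A and B and 9 each in clusters C and D. Their values were read by cluster and by place within the cluster.

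The study sequenced total RNA of these lines, all purchased from ATCC, in 6 libraries. CHLA 04 and CHLA 06 had 2 technical replicates each, whereas CHLA 02 and CHLA 05 had 1 library each, so every cell line was 1 biological sample. All 4 lines were grown in DMEM:F12 with 20 ng/mL EGF, 20 ng/mL basic FGF and B-27 at 2%, and none was treated, given SMARCB1 back or paired with cells of another kind. Differences between lines therefore carry no replicate check and no p-value, and the spread between technical replicates covers library preparation and sequencing at most.

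Values are in TPM (transcript abundance scaled to a fixed total per library), a level that takes transcript length and library size into account. Reads behind each TPM were recovered from the smallest steps in the files. The libraries held 10265899 to 20520229 reads on transcripts, of which 129 to 1204 lay on HOX genes. Intervals are 95% Wilson intervals from these reads and cover counting error only. SMARCB1 RNA was present in every library, at 13.5 TPM in CHLA 02, 26.2 and 22.2 TPM in CHLA 04, 16.3 TPM in CHLA 05 and 17.3 and 16.2 TPM in CHLA 06, so its RNA level did not check the labelled tumor type. The paper, citing earlier work, describes all 4 lines as without SMARCB1 expression. These RNA values differ from that description, and they do not measure protein. Other markers of AT/RT cells were measured as well. VIM, the intermediate filament vimentin, was between 4629 and 19464 TPM, SMARCA4, the remodeling ATPase, was between 104 and 342 TPM, and the tubulin gene TUBB3 (ENSG00000258947) was between 205 and 455 TPM. The other TUBB3 entry (ENSG00000198211) was between 3.55 and 30.4 TPM. NES, the neural stem cell marker nestin, was between 5.21 and 27.6 TPM. SOX2 was at 4.03 TPM in CHLA 05 but at most 0.47 TPM in the other libraries. PTPRC of blood cells and PECAM1 of endothelium reached at most 0.224 and 0.0378 TPM.

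CHLA 02 had 1 trait that touches the HOX genes, seen in its ratios to CHLA 06 and CHLA 04. Such ratios were not computed for CHLA 05, so the trait is not shown to be particular to CHLA 02. Outside the HOX genes, 260 genes were at 10 TPM or more in CHLA 06 and under 0.5 TPM in CHLA 04. Of these, 259 were at or above 1 TPM in CHLA 02, at a median of 0.595 of their level in CHLA 06. When genes also had to be under 0.5 TPM in CHLA 05, 153 remained, and 152 of them were at or above 1 TPM in CHLA 02. Being high in CHLA 02 and CHLA 06 alone was thus common, and a gene below that shares it with HOX genes is 1 of many. In the other direction, 291 of 294 genes that were at 10 TPM or more in CHLA 04 and under 0.5 TPM in CHLA 06 were at or above 1 TPM in CHLA 02, at a median of 0.358 of their level in CHLA 04. Genes at 10 TPM or more in 1 line and under 0.5 TPM in every other line numbered 43 for CHLA 05, 1 for CHLA 06 and 0 for both CHLA 02 and CHLA 04. For these genes the CHLA 02 library mostly held values between those of CHLA 04 and CHLA 06, so the HOX counts over all lines are given below with and without it. What placed it between them was not tested.

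HOX genes encode homeodomain transcription factors that give cells of the embryo their position along the head-to-tail axis. Vertebrates carry them in clusters, and genes at the 3′ end of a cluster (low paralog numbers) are switched on earlier and farther forward than those at the 5′ end (high paralog numbers). In the nervous system their domains begin in the hindbrain and reach through the spinal cord, while the forebrain and midbrain normally lack them. They bind DNA together with cofactors of the TALE class, such as the PBX and MEIS proteins, and their silent or active state is kept by Polycomb and Trithorax proteins. Paralog groups 1 to 4 are called anterior here, groups 5 to 8 central and groups 9 to 13 posterior.

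The DNA upstream of the members was read from RefSeq promoter windows on GRCh38.p14, of which 20 of the 38 members had at least 1 and 26 windows in all. HOXA5, HOXB2, HOXB3, HOXB4, HOXB5, HOXB6, HOXB7, HOXB8, HOXB9, HOXB13, HOXC6, HOXC8, HOXC9, HOXC10, HOXC11, HOXC12, HOXC13 and HOXD9 had none. The 250 bases before the start site are shown for 4 members. HOXA13 and HOXA10 led cluster A in CHLA 05, HOXC4 was detected in every line, and HOXD13 stands for cluster D, which had almost no RNA. Capitals mark the CCAAT motif and the TATAAA motif on either strand, written ATTGG and TTTATA where they lie on the other strand. HOXA13 lies at chr7:27200092-27200341 on the minus strand, HOXA10 at chr7:27174321-27174570 on the minus strand, HOXC4 at chr12:54016638-54016887 on the plus strand HOXD13 at chr2:176092471-176092720 on the plus strand.
HOXA13: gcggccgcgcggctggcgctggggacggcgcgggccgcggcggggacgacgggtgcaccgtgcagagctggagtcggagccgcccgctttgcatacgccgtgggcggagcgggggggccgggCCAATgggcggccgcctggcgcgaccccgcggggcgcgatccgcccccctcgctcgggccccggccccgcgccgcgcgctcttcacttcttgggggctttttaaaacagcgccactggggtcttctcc
HOXA10: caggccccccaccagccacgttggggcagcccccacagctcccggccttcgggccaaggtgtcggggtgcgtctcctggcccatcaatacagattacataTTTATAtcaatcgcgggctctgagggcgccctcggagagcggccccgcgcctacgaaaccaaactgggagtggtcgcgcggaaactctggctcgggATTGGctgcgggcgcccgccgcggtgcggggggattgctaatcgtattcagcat
HOXC4: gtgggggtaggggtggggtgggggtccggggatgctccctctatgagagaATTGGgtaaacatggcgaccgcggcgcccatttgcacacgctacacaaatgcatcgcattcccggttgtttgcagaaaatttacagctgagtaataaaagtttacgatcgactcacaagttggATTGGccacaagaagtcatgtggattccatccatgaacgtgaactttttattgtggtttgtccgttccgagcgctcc
HOXD13: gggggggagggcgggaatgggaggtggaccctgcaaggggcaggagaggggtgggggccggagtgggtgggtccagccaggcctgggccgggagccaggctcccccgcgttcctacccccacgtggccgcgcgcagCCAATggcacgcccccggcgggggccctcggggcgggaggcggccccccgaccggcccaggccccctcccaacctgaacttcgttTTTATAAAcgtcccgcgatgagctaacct

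These windows were rich in CpG dinucleotides. The HOXA13 window held 40, that of HOXA10 held 24, that of HOXC4 held 14 and that of HOXD13 held 21. Over the 26 HOX windows the median was 19.5 CpG, beside 11 over 35116 promoter windows of the same length, and the median ratio of observed CpG to the number given by base composition was 0.886 beside 0.558. Motifs were searched on both strands. CCAAT was in 17 of 26 HOX windows (65.4%, beside 32.0% of all windows) and TATAAA in 5 (19.2% beside 10.7%). In HOXD13 the TATAAA motif and its reverse complement share letters in a single run. The PBX-HOX motif TGATNNAT was in 3 windows (11.5% beside 6.47%) and the MEIS motif TGACAG in 2 (7.69% beside 13.03%). None of the 4 windows shown held either. Nearby windows of 1 gene are not independent, since HOXA3 alone gave 7 of the 26.

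Few HOX genes were expressed in these lines. In CHLA 06, 8 of 38 members were at or above a mean of 1 TPM (21.1%, beside 37.3% of all 36532 genes). CHLA 02 had 6 such members (15.8%, beside 39.7% of all genes), CHLA 05 had 4 (10.5%, beside 39.2%) and CHLA 04 had 2 (5.26%, beside 38.7%). In all, 10 of the 38 reached 1 TPM in at least 1 line, and the same number did so without CHLA 02. The share of all genes was not computed for this count over the lines, nor for the read counts below. Only the counts by single line can therefore be set against all genes. Of these, HOXB2, HOXB3, HOXC4 and HOXC8 reached 5 TPM, and HOXA10, HOXA13, HOXB4, HOXC6, HOXC9 and HOXC10 lay between 1 and 5 TPM in their highest line. A further 19 members had at least 1 read but stayed under 1 TPM in every line. The remaining 9, HOXA2, HOXB1, HOXB9, HOXC11, HOXC12, HOXD1, HOXD3, HOXD11 and HOXD12, had no read in any library. Without CHLA 02 these numbers were 18 and 10, since the only read of HOXB6 was in CHLA 02.

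**Figure D1:**
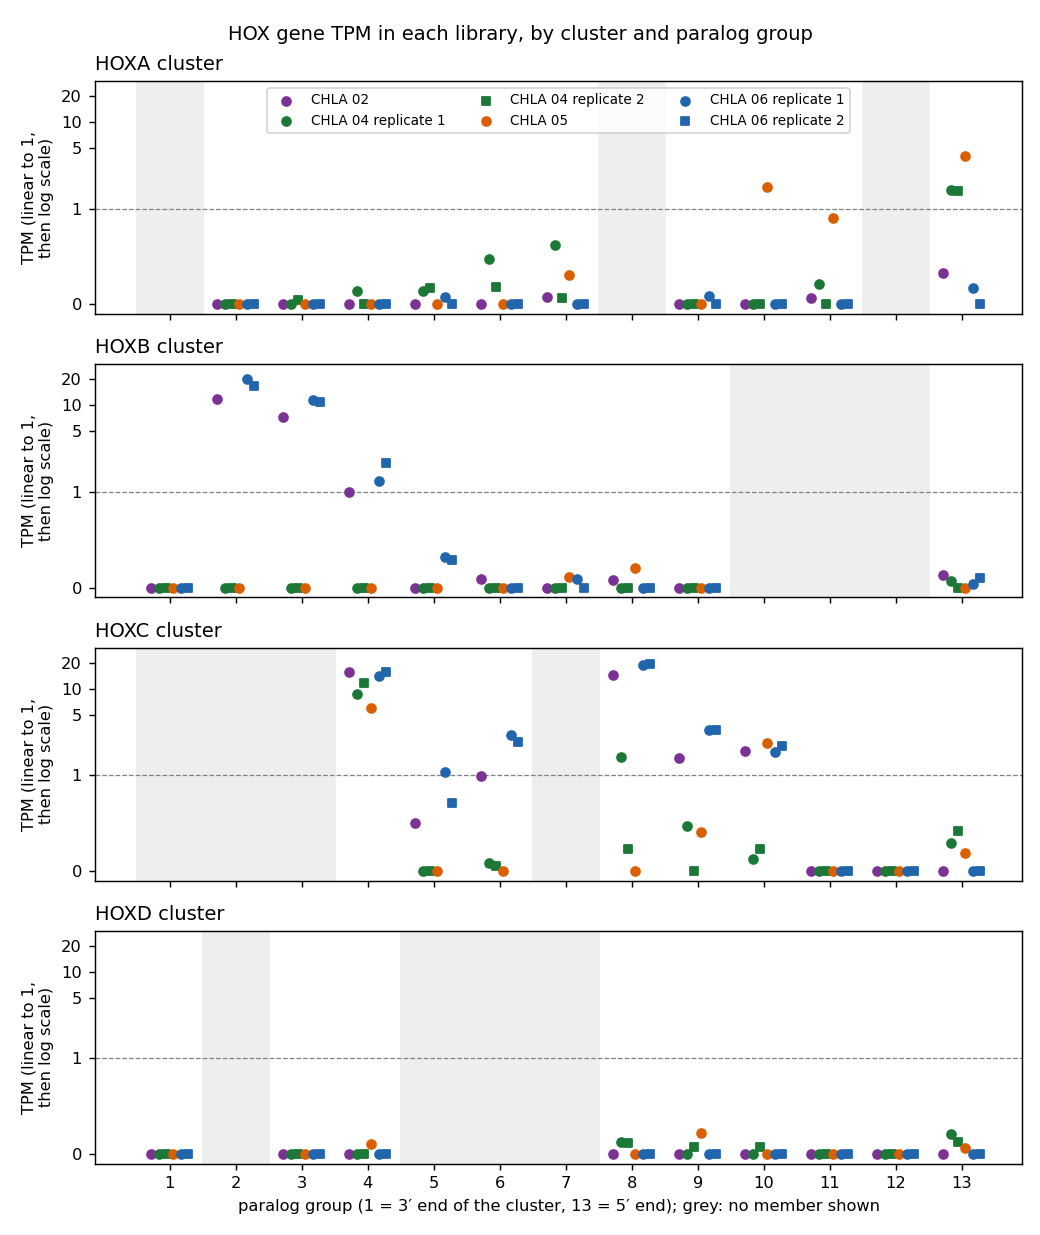
TPM of each HOX gene (y axis, linear to 1 and logarithmic above) by paralog group (x axis) in 1 panel per cluster, with 1 point per library, spread sideways for clarity, and a dashed line at 1 TPM. HOXB2, HOXB3 and HOXC8 are high in CHLA 02 and CHLA 06, HOXC4 is above 5 TPM in all 6 libraries, HOXA10 and HOXA13 are highest in CHLA 05, and cluster D stays under 0.218 TPM.

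Summed over the 38 members, HOX RNA was 55.5 TPM in CHLA 02 (51.6 to 59.8). It was 14.9 TPM in both libraries of CHLA 04, 16.6 TPM in CHLA 05 (14.8 to 18.7) and 75.6 and 74.1 TPM in CHLA 06. The sum in CHLA 06 (74.9 ± 1.05 TPM, SD, n = 2 technical replicates) and that in CHLA 02 lay far above those in CHLA 04 and CHLA 05, whose intervals overlapped. The clusters did not share the RNA evenly. In CHLA 06, 57.3% of the sum came from cluster C, 42.5% from cluster B and 0.230% from cluster A. In CHLA 05, cluster C gave 53.3%, cluster A 42.4% and cluster B 1.92%. Cluster C was the largest source in CHLA 04 as well, at 79.7%, followed by cluster A at 17.7%.

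**Figure D2:**
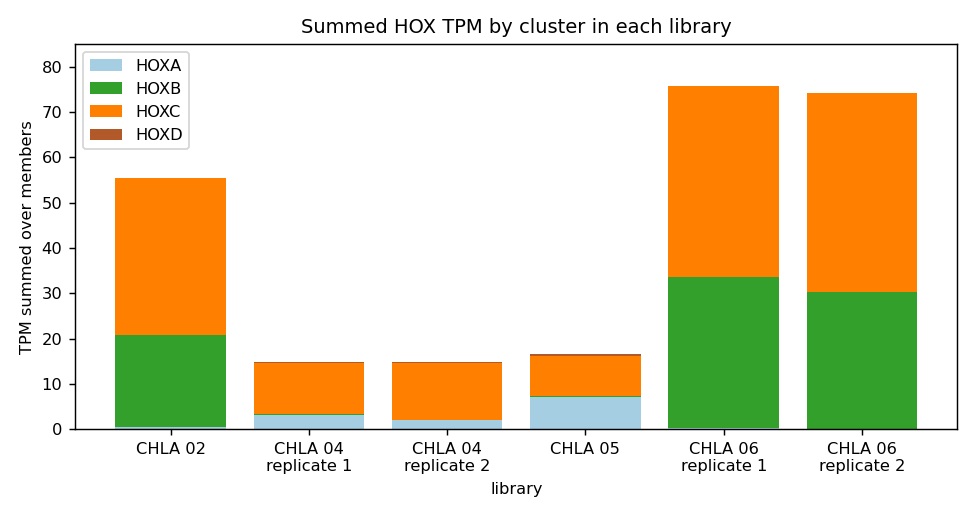
TPM summed over the HOX members of each cluster (y axis, stacked bars from 0) in each of the 6 libraries (x axis). Cluster B adds 20.4 TPM in CHLA 02 and 33.4 and 30.3 TPM in CHLA 06 but at most 0.318 TPM in the other libraries, and cluster A adds most in CHLA 05, at 7.04 TPM.

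The place within the cluster also differed between lines. Anterior genes held 61.8% of the HOX sum in CHLA 06 but 36.2% in CHLA 05, while their share was 64.0% for CHLA 02 and 68.5% for CHLA 04. Posterior genes held 60.1% in CHLA 05, at 9.97 TPM (8.70 to 11.4), beside 18.5% for CHLA 04 and 7.20% and 7.38% for CHLA 02 and CHLA 06. The share of central genes was 30.8% in CHLA 06 and 28.8% in CHLA 02, against 13.02% for CHLA 04 and 3.75% for CHLA 05. CHLA 05 was thus the line with the most posterior HOX RNA, both as a level and as a share. Leaving CHLA 02 out does not touch this order.

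Cluster B lies on chromosome 17, and its RNA was confined to CHLA 02 and CHLA 06 apart from 3 reads in the other lines. HOXB2 (ENSG00000173917, chr17:48540894-48544989), which acts in hindbrain segments, was at 11.8 TPM in CHLA 02, 0 in both libraries of CHLA 04, 0 in CHLA 05 and 20.0 and 16.8 TPM in CHLA 06. HOXB3 (ENSG00000120093, chr17:48548870-48604912), a neighbour with overlapping hindbrain roles, was at 7.27 TPM in CHLA 02, 0 in CHLA 04 and CHLA 05, and 11.6 and 10.9 TPM in CHLA 06. Both genes separated the lines completely, with no read in 3 libraries and 122 to 234 reads in each of the others. A level of 0 was given a limit of 3 reads over the libraries of a line, on the most abundant transcript of the gene. That limit was 0.173 TPM for HOXB2 and 0.0641 TPM for HOXB3 in CHLA 04, and 0.294 and 0.109 TPM in CHLA 05. HOXB2 in CHLA 06 was 107-fold above its limit in CHLA 04 and 62.6-fold above that in CHLA 05. HOXB3 was 175.5-fold and 103-fold above its limits in the same comparisons. These are not lower bounds, since a read on a shorter transcript is worth more TPM. For HOXB3, 27.7% of its TPM lay on a transcript of 595 bases, beside 4208 for the most abundant one. For HOXB2, 3.03% and 1.34% lay on transcripts of 930 and 625 bases, beside 1562.

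Farther 5′ in cluster B the levels dropped. HOXB4, known from blood stem cells and the caudal hindbrain, was at 0.995 TPM in CHLA 02 and 1.34 and 2.15 TPM in CHLA 06, with no read in CHLA 04 and CHLA 05. HOXB5 had 5 reads in each library of CHLA 06 (0.317 and 0.287 TPM) and none elsewhere. HOXB6, HOXB7 and HOXB8 had 1 or 2 reads each over all libraries, HOXB9 had none, and HOXB13, at the far 5′ end and best known from the prostate, had 8 reads with a highest level of 0.129 TPM. In CHLA 06 the order of levels from paralog group 2 on was therefore 18.4, 11.2, 1.75 and 0.302 TPM for HOXB2, HOXB3, HOXB4 and HOXB5. The replicates of HOXB2 (16.8 and 20.0 TPM) and HOXB3 (10.9 and 11.6 TPM) did not overlap. HOXB1, the member at the 3′ end, did not follow this order, with no read at all and a limit of 0.0912 TPM in CHLA 06.

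Cluster C, on chromosome 12, was the only cluster with RNA at 1 TPM or more in all 4 lines, and HOXC4 was the member that carried this. HOXC4 (ENSG00000198353, chr12:54016931-54056030), a gene of the neck and upper trunk region, was at 15.5 TPM in CHLA 02, 8.71 and 11.6 TPM in CHLA 04, 5.91 TPM in CHLA 05 and 14.02 and 15.7 TPM in CHLA 06. Levels in CHLA 02 (13.3 to 17.96) and CHLA 06 could not be told apart, CHLA 04 lay lower at 10.1 ± 2.02 TPM (SD, n = 2 technical replicates) and CHLA 05 was lowest (4.63 to 7.54). The difference between CHLA 06 and CHLA 05 was 1.09 on the log2(TPM + 2) scale. HOXC4 was the only one of the 8 members at 1 TPM in CHLA 06 that was higher in CHLA 02 than in CHLA 06.

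HOXC8 (ENSG00000037965, chr12:54009106-54012362), a gene of the brachial and thoracic spinal cord, followed the genes of cluster B. Its level was 14.3 TPM in CHLA 02, 1.63 and 0.230 TPM in CHLA 04, 0 in CHLA 05 and 18.7 and 19.5 TPM in CHLA 06. The libraries of CHLA 04 had 13 and 3 reads, so their levels differed by more than the mean itself, while both lay far under CHLA 02 and CHLA 06. HOXC8 was 20.6-fold higher in CHLA 06 than in CHLA 04 and at least 78.6-fold higher than in CHLA 05. HOXC6, HOXC9 and HOXC5 had the same high lines at lower levels. HOXC6 was at 2.92 and 2.39 TPM in CHLA 06, 0.994 TPM in CHLA 02, at most 0.0804 TPM in CHLA 04 and 0 in CHLA 05. HOXC9, a gene of thoracic motor neuron columns, was at 3.30 TPM in both libraries of CHLA 06, 1.58 TPM in CHLA 02 and at most 0.469 TPM elsewhere. HOXC5 was at 1.07 and 0.713 TPM in CHLA 06 and 0.497 TPM in CHLA 02, with no read in the other lines.

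HOXC10, a gene of the lumbar spinal cord and hindlimb region, had another pattern. It was at 1.89 TPM in CHLA 02, 0.122 and 0.225 TPM in CHLA 04, 2.35 TPM in CHLA 05 and 1.87 and 2.18 TPM in CHLA 06. CHLA 02, CHLA 05 and CHLA 06 had overlapping intervals (1.26 to 2.83, 1.62 to 3.42 and 1.58 to 2.58), and only CHLA 04 lay apart, with 4 reads. HOXC11 and HOXC12 had no read. HOXC13 had 3 and 7 reads in CHLA 04 and 3 in CHLA 05 (at most 0.419 TPM) and none in CHLA 02 and CHLA 06.

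Cluster A, on chromosome 7, was read mainly at its 5′ end and mainly in CHLA 05. HOXA13 (ENSG00000106031, chr7:27193503-27200106), the most 5′ member, which patterns the distal limb and hindgut, was at 0.327 TPM in CHLA 02, 1.65 and 1.58 TPM in CHLA 04, 4.05 TPM in CHLA 05 and 0.174 and 0 TPM in CHLA 06. Its order was CHLA 05 (3.42 to 4.80), CHLA 04 (1.30 to 1.99), CHLA 02 (0.183 to 0.586) and CHLA 06 (0.0239 to 0.317), of which the last pair had overlapping intervals. HOXA10, a gene of the lumbar region and the uterus, had 22 reads in CHLA 05 (1.78 TPM, 1.18 to 2.70) and none in any other library. That level was 14.4-fold the CHLA 04 limit, which takes its most abundant transcript and would be higher for shorter ones. HOXA11 had 13 reads in CHLA 05 (0.903 TPM), 2 in CHLA 04 and 1 in CHLA 02. HOXA9, which lies between these genes and the central ones, had 1 read in all, in CHLA 06. HOXA3, HOXA4, HOXA5, HOXA6 and HOXA7 had 1 to 8 reads each, with the highest level at 0.618 TPM for HOXA7 in CHLA 04.

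Cluster D, on chromosome 2, had almost no RNA. Its 9 members gave 12 reads over the 6 libraries, 8 in CHLA 04, 4 in CHLA 05 and none in CHLA 02 and CHLA 06. The highest level was 0.218 TPM, for HOXD9 in CHLA 05. HOXD13 had 5 reads, HOXD8 had 2, and HOXD4 and HOXD10 had 1 each. The limit that 0 reads allow ranged from 0.0773 to 0.349 TPM over the members and lines. In paralog group 13 the reads over all libraries were 231 for HOXA13, 13 for HOXC13, 8 for HOXB13 and 5 for HOXD13.

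The lines were compared in pairs on the log2(TPM + 2) scale, over genes at 1 TPM or more in at least 1 of the pair, and a difference of at least 2 was called past the fold. In CHLA 06 against CHLA 04, 3 of 9 HOX genes compared were higher past the fold, beside 5.38% of all genes compared. In CHLA 06 against CHLA 05 there were 3 of 10 (4.27% of all genes), in CHLA 02 against CHLA 04 3 of 7 (3.88%) and in CHLA 02 against CHLA 05 3 of 8 (3.79%). In each of these pairs they were HOXB2, HOXB3 and HOXC8. These comparisons share libraries and are not separate evidence. With CHLA 02 left out, the pairs of CHLA 06 against CHLA 04 and CHLA 05 keep their counts.

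No HOX gene was lower past the fold in those 4 pairs, where the shares of all genes were 6.74%, 6.70%, 0.696% and 3.30% in the same order. None of 8 was past it in either direction between CHLA 06 and CHLA 02 (0.155% of all genes higher and 3.20% lower in CHLA 06) and none of 4 between CHLA 05 and CHLA 04 (3.49% higher and 2.17% lower in CHLA 05). Of the HOX genes compared between CHLA 06 and CHLA 04, HOXC4 and HOXA13 alone reached 1 TPM in CHLA 04, so most members entered that comparison through the line in which they were high. The added 2 TPM keeps differences of low genes small. HOXA13 was 2.52-fold higher in CHLA 05 than in CHLA 04 as a ratio of TPM, which on this scale was a difference of 0.75, and HOXC6 was 41.0-fold higher in CHLA 06 than in CHLA 04, from 111 reads against 2, with a difference of 1.17.

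The ratio of CHLA 02 to CHLA 06 was read for the 8 members at 1 TPM or more in CHLA 06. It was 0.642 for HOXB2, 0.647 for HOXB3, 0.745 for HOXC8 and 0.570 for HOXB4. The ratio of HOXC6 was 0.374 and that of HOXC9 was 0.479, while HOXC10 and HOXC4 were near 1, at 0.933 and 1.04. Of the 8 members, 7 had a level in CHLA 02 between those in CHLA 04 and CHLA 06, HOXC4 being the exception. The share of all genes placed between them was not computed, so this count says nothing particular to HOX genes. The other genes high in CHLA 06 and low in CHLA 04 had quartiles of 0.422 and 0.760, a range that held HOXB2, HOXB3, HOXB4, HOXC8 and HOXC9. Only HOXB2 and HOXB3 met the cutoffs of those other genes (10 TPM in CHLA 06 and under 0.5 TPM in CHLA 04), so the rest are not a like comparison.

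**Figure D3:**
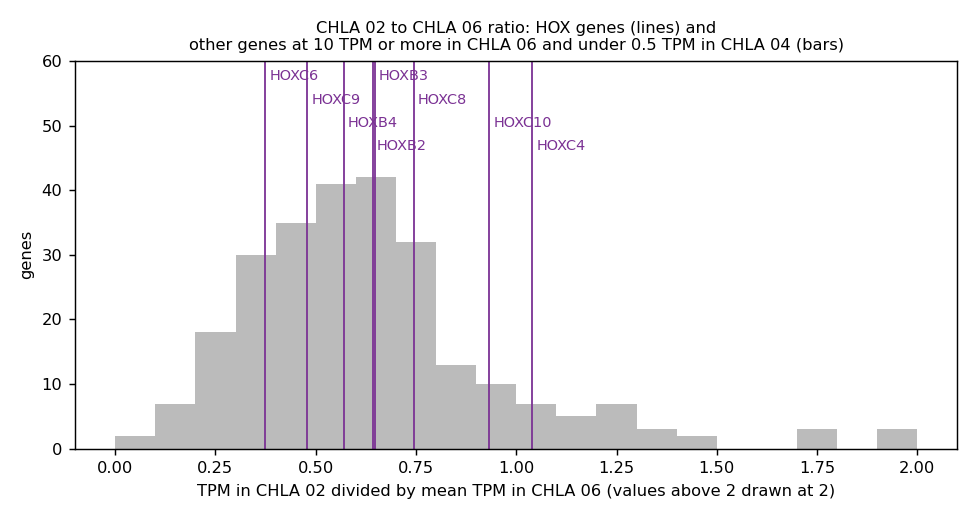
TPM in CHLA 02 divided by the mean TPM in CHLA 06 (x axis) for the 8 HOX genes at 1 TPM or more in CHLA 06 (lines) and, as a histogram of gene counts (y axis), for 260 other genes at 10 TPM or more in CHLA 06 and under 0.5 TPM in CHLA 04. The median of the histogram is 0.595, HOXB2 and HOXB3 lie just above it at 0.642 and 0.647, and HOXC4 lies at 1.04.

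Transcripts of the members were compared where the gene reached 1 TPM. HOXB2 came to 95.6% from ENST00000330070 and HOXC8 wholly from ENST00000040584, the only transcript listed for it. HOXA13 came to 96.0% from ENST00000222753, whose annotated start lies 15 bases from the RefSeq start site of the window shown above. HOXC4 differed, since 94.8% of its TPM came from ENST00000430889, a transcript of 2 exons that starts at position 54053877, 36.99 kb downstream of the RefSeq start site of the window shown. That transcript was at 15.1 TPM in CHLA 02, 8.09 and 11.5 TPM in CHLA 04, 5.70 TPM in CHLA 05 and 13.3 and 14.1 TPM in CHLA 06. The 4-exon transcript that begins near the window, ENST00000303406, was at 0.0951 to 1.61 TPM, highest in both libraries of CHLA 06.

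The RNA of HOXB3 was spread over many transcripts. Of its TPM, 43.7% was on ENST00000470495, a transcript of the 3′ part of the gene, 27.7% on ENST00000464266 and 12.9% on ENST00000311626. HOXA10 was spread as well, with 43.4% on ENST00000613671, which starts 65 bases from the RefSeq start site of the window shown. Members share ground within a cluster. In 15 pairs, with 22 members, the spans of 2 HOX genes overlapped, among them HOXB3 with HOXB4, HOXB5 and HOXB6, HOXC4 with HOXC5 and HOXC6, and HOXC6 with HOXC8 and HOXC9. How reads in shared exons were split was not stated, so levels of HOXC5, HOXC6 and HOXB4 beside their strong neighbours are uncertain.

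Other RNAs of the clusters were few. Of 23 antisense and host RNAs listed, 19 were in the files, 8 had a read and 1 reached 1 TPM. This was HOXB-AS1, an antisense RNA of cluster B, at 1.29 TPM in CHLA 02, 0 in CHLA 04, 0.455 TPM in CHLA 05 and 3.64 and 2.89 TPM in CHLA 06. It was high in the same lines as HOXB2 and HOXB3. HOTTIP, which lies next to HOXA13, was at 0.728 TPM in CHLA 05, 0.325 and 0 TPM in CHLA 04 and 0 elsewhere, and HOXC-AS1 was at 0.546 TPM in CHLA 02 and 0.236 and 0.641 TPM in CHLA 06. HOTAIRM1 was at 0.352 TPM in 1 library of CHLA 04, and HOTAIR, HAGLR and HAGLROS had no read. The library kit keeps strand, but whether counting used it was not stated, so reads of a HOX gene and an antisense RNA over it cannot be told apart. None of 6 listed miRNA genes of the clusters was in the files. Of 26 other genes inside the cluster spans, 8 had a read and 3 reached 1 TPM, namely HOXB-AS1, CTD-2377D24.6 in cluster B (2.12 TPM in CHLA 06) and RP1-170O19.14 in cluster A (1.103 TPM in CHLA 05, from 4 reads).

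Most expressed genes on either side of the clusters had RNA in all 4 lines. Of 16 flanking genes listed, 15 were in the files and 10 reached 1 TPM, and 0 were past the fold in any of the 6 pairs. The shares of all genes compared were 0.155% to 6.74% per pair and direction. A count of 0 among so few genes therefore says nothing particular to the flanks. HNRNPA1 and CBX5, at the 3′ side of cluster C, were at 1235 to 2155 TPM and 186 to 309 TPM over the libraries, and ATP5G2 and CALCOCO1 were at 159 to 250 TPM and 33.01 to 109.9 TPM. TTLL6, a tubulin glutamylase gene beside cluster B, was low but had the same high lines as HOXB2 and HOXB3, at 1.87 TPM in CHLA 02, 0.542 and 0.0326 TPM in CHLA 04, 0.106 TPM in CHLA 05 and 2.44 and 1.79 TPM in CHLA 06. At such levels the added 2 TPM keeps a difference under the fold. The closest homeobox neighbours were low, as EVX1, beside HOXA13, was at 0.507 TPM in CHLA 05 and 0 elsewhere, and EVX2, beside HOXD13, was at most 0.109 TPM.

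LTR elements, the retroviral repeats that the study measured in a separate mapping, were scarce in the clusters. Clusters A, C and D held none of the 720177 annotated elements, and all 28 in cluster B lay in the 98.4 kb between HOXB9 and HOXB13. That made 54.3 elements per Mb over the 4 clusters, beside 131 per Mb in the 100 kb on each side of them and 233 per Mb over all chromosomes. None of the 28 had a read in any library, while 11 of the 105 flanking elements had (62 reads in all), and 16.3% of all elements. No LTR RNA was thus measured within a HOX cluster. In clusters A, C and D none could be, since they held no element. The elements of cluster B lay away from HOXB2, HOXB3 and HOXB4, so the absence cannot be set against HOXB or HOXC RNA.

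TALE cofactors were all expressed in at least 1 line, and 8 of 8 listed reached 1 TPM. PBX3, a partner that binds DNA together with HOX proteins, was at 381 TPM in CHLA 02, 627 and 440 TPM in CHLA 04, 79.7 TPM in CHLA 05 and 40.9 and 49.3 TPM in CHLA 06. MEIS2 was present in all lines, from 101 TPM in CHLA 05 to 315 TPM in CHLA 04. PBX2 varied little, from 64.6 TPM in CHLA 05 to 115.8 TPM in 1 library of CHLA 04. CHLA 06, the line with the most HOX RNA, thus had the lowest PBX3 level.

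The MEIS genes split by line. MEIS3, known for its part in hindbrain patterning, was at 151.5 TPM in CHLA 02, 76.1 and 37.8 TPM in CHLA 04, 1.40 TPM in CHLA 05 and 439 and 302 TPM in CHLA 06. MEIS1 was at 11.5 TPM in CHLA 02, 27.6 and 19.0 TPM in CHLA 04, 10.5 TPM in CHLA 05 and 0.105 and 0 TPM in CHLA 06. PKNOX2, of the related PREP family, was at 1.02 TPM in CHLA 02, 9.69 and 7.84 TPM in CHLA 04, 27.8 TPM in CHLA 05 and 0 and 0.296 TPM in CHLA 06. MEIS3 was therefore highest and MEIS1 and PKNOX2 lowest in CHLA 06, the line with the highest HOXB and HOXC levels. Of the 8 cofactors, 1 was higher and 3 were lower past the fold in CHLA 06 than in CHLA 04, beside 5.38% and 6.74% of all genes. Against CHLA 05, 1 was higher and 2 were lower, beside 4.27% and 6.70%.

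**Figure D4:**
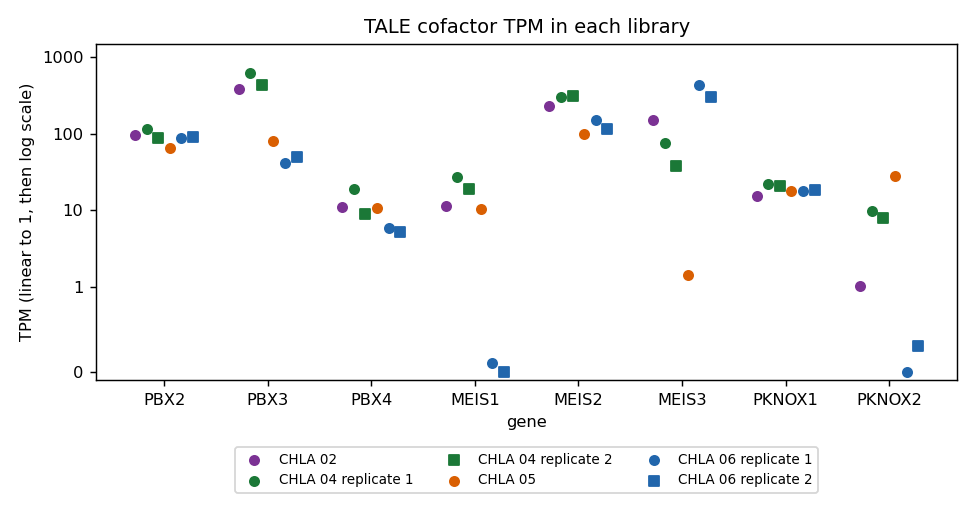
TPM of 8 TALE cofactors (x axis) in each library (y axis, linear to 1 and logarithmic above), with 1 point per library. MEIS3 is highest in CHLA 06, at 439 and 302 TPM, where MEIS1 is at 0.105 and 0 TPM, and PBX3 is highest in CHLA 04, at 627 and 440 TPM.

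Retinoic acid switches on 3′ HOX genes in the hindbrain, and CDX proteins do so in the trunk. CDX1 and CDX4 had no read and CDX2 was at most 0.0358 TPM. Of 19 genes listed for both routes, 12 reached 1 TPM. Past the fold, 2 were higher and 0 lower in CHLA 06 than in CHLA 04, beside 5.38% and 6.74% of all genes. The counts against CHLA 05 were the same, beside 4.27% and 6.70%. ALDH1A1, an enzyme that makes retinoic acid, was at 26.5 TPM in CHLA 02, 0 and 0.180 TPM in CHLA 04, 0.146 TPM in CHLA 05 and 79.1 and 48.7 TPM in CHLA 06. The receptor gene RARG was at 38.7 TPM in CHLA 02, 5.32 and 2.79 TPM in CHLA 04, 22.0 TPM in CHLA 05 and 68.0 and 64.8 TPM in CHLA 06. ALDH1A1 thus separated the same lines as HOXB2 and HOXB3, whereas RARG was also well above CHLA 04 in CHLA 05. ALDH1A3 was high in the same lines, at 10.2 TPM in CHLA 02 and 7.43 and 10.95 TPM in CHLA 06, beside at most 1.89 TPM elsewhere. Others did not follow. CRABP2 was at 12.6 TPM in CHLA 05, near its 13.8 and 13.4 TPM in CHLA 06, and CYP26B1 was highest in CHLA 05, at 3.28 TPM. The part of these genes in the HOX levels was not tested. The partner receptors RXRA and RXRB were at 25.3 to 56.5 TPM and 32.0 to 51.9 TPM.

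Trithorax genes, which keep HOX genes active, were present in these lines. All 20 listed reached 1 TPM in at least 1 line, beside 37.3% to 39.7% of all genes in a single line. Past the fold, 1 was higher and 1 lower in CHLA 06 than in CHLA 04, beside 5.38% and 6.74% of all genes compared. Against CHLA 05 there were 0 in either direction, beside 4.27% and 6.70%. These counts lay near the shares of all genes. KMT2A, the HOX-activating methyltransferase, was at 76.9 and 85.8 TPM in CHLA 06 and 241 and 276 TPM in CHLA 04. PSIP1, which ties KMT2A to chromatin, was at 264 to 373 TPM, and KMT2C and KAT6A were at 78.6 to 205 TPM and 87.6 to 140.3 TPM. Polycomb genes, which silence HOX genes, were all at or above 1 TPM as well, and 0 of 20 were higher and 4 lower past the fold in CHLA 06 than in CHLA 04. Over all genes compared in that pair the shares were 5.38% and 6.74%. CBX2 was at 13.6 TPM in CHLA 02, 52.8 and 46.5 TPM in CHLA 04, 73.2 TPM in CHLA 05 and 5.82 and 6.45 TPM in CHLA 06, and PHC2 was at 148 TPM, 389.8 and 296 TPM, 240.1 TPM and 51.3 and 53.3 TPM in the same order. RBBP7, RBBP4 and SUZ12 were at 113 to 391 TPM, 152 to 224 TPM and 50.5 to 154 TPM. The Polycomb subunits CBX2 and PHC2 were thus lowest in the line with the most HOX RNA. Not all of the list followed, as RNF2 was highest there, at 37.8 and 40.6 TPM, beside at most 31.1 TPM in the other lines. KMT2A, on the activating side, was lowest there too. The part of either group in the HOX levels was not tested.

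Transcription factors that mark other brain regions were read beside the HOX genes. LHX2, a forebrain factor, was at 6.28 TPM in CHLA 02, 26.8 and 28.9 TPM in CHLA 04, 36.7 TPM in CHLA 05 and 0.742 and 2.62 TPM in CHLA 06. EMX2, a factor of the dorsal forebrain, was at 37.6 TPM in CHLA 05 and at most 1.51 TPM elsewhere. These forebrain genes were low in CHLA 06, but DLX1 and DLX2, factors of the ventral forebrain and of neural crest derivatives, were highest there. DLX1 was at 64.6 and 46.6 TPM in CHLA 06, 32.98 TPM in CHLA 02 and 3.91 to 4.41 TPM in the other libraries, and DLX2 was at 35.1 and 31.2 TPM, 13.1 TPM and 1.15 to 5.25 TPM. Of 19 such factors, 12 reached 1 TPM, and 2 were higher and 2 lower past the fold in CHLA 06 than in CHLA 04. The shares of all genes were 5.38% and 6.74%.

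Some markers of other cell types had the same high lines as HOXB2, HOXB3 and HOXC8, a split shared with many other genes. COL1A1, a collagen chain of fibroblasts, was at 387 TPM in CHLA 02, 2.76 and 0.679 TPM in CHLA 04, 11.5 TPM in CHLA 05 and 600.3 and 459 TPM in CHLA 06. MBP, of oligodendrocytes, was at 31.9 TPM in CHLA 02, 0 in both libraries of CHLA 04, 0.268 TPM in CHLA 05 and 23.9 and 22.3 TPM in CHLA 06. AQP4, of astrocytes, had the opposite order, with 34.1 TPM in CHLA 02, 51.9 and 39.6 TPM in CHLA 04, 43.2 TPM in CHLA 05 and 0.228 and 0.0222 TPM in CHLA 06. Of the 5 markers of other cell types, COL1A1 and MBP thus followed HOXB2, HOXB3 and HOXC8, AQP4 was lowest where they were highest in CHLA 06, and PTPRC and PECAM1 were near 0 throughout. Their part in the HOX levels was not tested, and in RNA from whole cultures a smaller share of HOX-positive cells and less HOX RNA per cell cannot be told apart.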

How the data were processed

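Total RNA of 4 AT/RT cell lines was sequenced in 6 stranded libraries of paired 125 bp reads. The authors demultiplexed reads with CASAVA 1.8.2 per the submitters' processing notes, removed adaptors by Trimmomatic, used the CLCbio Genomics Workbench for mapping on GRCh38 and deposited TPM per Ensembl transcript and, from a separate mapping, per RepeatMasker LTR element. The values were neither log-transformed nor quantile normalized, and replicates were not pooled.

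From these TPM values, gene TPM was summed over the transcripts of a gene identifier. Reads were recovered as whole multiples of 1 read's step, which held for 99.6 to 100% of values (tolerance 0.05 reads), and 1 read on 1000 bp was worth 0.117 to 0.236 TPM. Recovery was tested on libraries simulated from the 173113 transcripts and was exact for every transcript with a simulated read. This result does not cover the LTR elements. Technical replicates were averaged and Wilson intervals were computed from recovered reads. A level of 0 was given the limit of 3 reads on the most abundant transcript of the gene, or on the longest where none had a read. Lines were compared as log2(TPM + 2) over genes at 1 TPM or more in 1 of the pair, with no test, since each line was 1 biological sample.

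Every member was accounted for, with per-library values for those at 5 TPM or more. Of each accompanying list, the text names the 4 highest genes and up to 4 more that were past the fold in at least 3 of 6 pairs. EVX1, EVX2, TTLL6, HOTAIR, HAGLR, HAGLROS, the CDX genes, ALDH1A3, CRABP2, CYP26B1, RNF2, NES, SOX2, CTD-2377D24.6, RP1-170O19.14 and the blood and endothelial markers are outside this rule and were chosen after their values were seen. SMARCB1, whose loss usually marks AT/RT, is outside it too. Beside these, 2 genes were removed from the lists and are not reported here. Members, lists and rule were chosen with earlier results of these data known. Alternatives were other thresholds, pseudocounts and filters, quantile normalization, rescaling by a trimmed mean of M values, the most abundant transcript, the maximum of technical replicates and leaving out each technical replicate. Python 3.11.15 with numpy 2.4.6, pandas 2.3.3, scipy 1.17.1 and matplotlib 3.10.9 was used.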

Additional observations from a re-analysis of the deposited data

How the results depend on the processing

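No paired analysis was possible because the results come from no test, and the replicate numbers shared by CHLA 04 and CHLA 06 mark technical replicates. Over 17 results, 124 of 150 alternatives left a count within 1.5 times its value or a sum within its error. Among them were every fit that left out a technical replicate and the counts of members without CHLA 02, an alternative chosen after seeing the data. Many of these could not move. Leaving out a replicate of CHLA 04 or CHLA 06 does not touch other lines, nor does the maximum of replicates touch CHLA 02 or CHLA 05. The error of the CHLA 04 and CHLA 06 sums was the SD of their 2 replicates, which leaving out 1 cannot exceed. The alternatives that did move follow. At 5 TPM the count of HOX genes was 1 for both CHLA 04 and CHLA 05, and 4 for CHLA 06 and for all lines together, and at 2 TPM it was 1 in CHLA 04. With a pseudocount of 0.1, HOX genes past the fold were 8 for CHLA 06 against CHLA 04, 8 for CHLA 06 against CHLA 05, 6 for CHLA 02 against CHLA 04, 5 for CHLA 02 against CHLA 05 and 2 for CHLA 05 against CHLA 04, since low genes then differ by more on the log scale. With a difference of at least 1 they were 5, 7 and 5 for CHLA 06 against CHLA 04, CHLA 06 against CHLA 05 and CHLA 02 against CHLA 05, and 1 for CHLA 05 against CHLA 04. The summed HOX TPM after quantile normalization was 84.7 for CHLA 06, 50.8 for CHLA 02, 14.3 for CHLA 05 and 14.75 for CHLA 04, and 64.0, 49.7, 14.4 and 14.3 in the same order from the most abundant transcript. It was 18.3 and 79.3 in CHLA 04 and CHLA 06 with the maximum of technical replicates, and 14.2 and 78.4 with the trimmed mean of M values, which shifted all genes of a library by -0.11 to 0.10 on the log2 scale. CHLA 06 and CHLA 02 stayed above the others in these settings, and CHLA 04 and CHLA 05 changed places after quantile normalization and with the maximum of technical replicates. Depth limits the members with under 10 reads, whose levels cannot be ordered between lines.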
